A study of Mus musculus with 20 samples.

Results

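The cochlear sensory epithelium and the superior olivary complex (SOC) were compared on the day of birth (P0), before the mouse hears. The comparison used the genes that had at least 1 count in a P0 library of each organ. These were 16365 of the 22734 genes of the deposited count table, and 16347 of them passed the filter on low counts and were tested. A further 5424 genes had counts in the cochlea only and 848 in the SOC only, but 5324 and 846 of these are missing from the other organ's tables, so that a 0 there allows up to 20 counts per library. RNA sequencing had been done on both organs at embryonic day 16 (E16), at P0 and at postnatal day 16 (P16), in 20 libraries. At P0 there were 3 cochlea libraries from C57BL/6JOlaHsd mice and 4 SOC libraries from C57Bl6/J mice, all of the wild type, untreated and of both sexes. The SOC was cut from frozen brains with a cryostat. By the study's methods each P0 sample of the SOC held tissue of several animals and cochlear epithelia came from the inner ears of several mice, so the p-values measure the spread between libraries and not between single animals. Total counts at P0 were 23737172 to 31181323 in the cochlea and 20843679 to 26448021 in the SOC. Organ went together with substrain, laboratory, RNA isolation, library kit and sequencer, and the part of each in a difference between the organs cannot be told apart. In bulk tissue, fewer cells of a type and less RNA per cell cannot be told apart either.

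The cochlea is the hearing organ of the inner ear. Its sensory epithelium holds hair cells, which turn sound into receptor currents through a bundle of stereocilia, and supporting cells, which secrete the overlying tectorial membrane. Endolymph, a fluid rich in potassium, is made by the stria vascularis. The SOC is a group of nuclei in the hindbrain that compares the signals of both ears. Its neurons use glutamate, glycine and GABA, and the expression of Hox and Zic genes is a feature of hindbrain tissue. On the day of birth hair cells have left the cell cycle, while the ear canal is still closed and hearing has not begun.

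Before the organs were compared, the libraries were checked for markers of other tissues. SOC replicate 4 stood apart from the other 3 SOC libraries. The summed level of the 7 listed forebrain genes was 296 CPM in replicate 4, 65.6, 81.7 and 63.8 CPM in SOC replicates 1 to 3, and 5.06 to 6.68 CPM in the cochlea. Neurod6, a transcription factor of cortical neurons, was at 162 CPM in replicate 4 and its lowest SOC library was at 18.2 CPM. Tbr1 and Emx1 had no count in SOC replicates 1 to 3 and were at 10.4 and 5.49 CPM in replicate 4. Eomes, of the same list, was at 11.7, 14.1, 10.1 and 11.8 CPM in SOC replicates 1 to 4. Replicate 4 also stands in another of the joined SOC tables than replicates 1 to 3, as read from which genes are at 0 together, so a 0 for Tbr1 and Emx1 allows up to 20 counts per library. Of the genes tested, 531 had SOC counts at P0 in replicate 4 only, of which 315 were called higher in the cochlea, and 408 had none in replicate 4, of which 215 were called higher in the cochlea. Results that rest on this library are given with and without it, and its part in them was not tested. Without replicate 4, 6387 of the 6769 called genes described below kept their call and direction, and none turned. In the cochlea, replicate 2 had higher skeletal muscle markers, with a summed level of 219.7 CPM over 13 listed genes against 35.9 and 66.6 CPM in replicates 1 and 3.

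Calls were made from edgeR's quasi-likelihood test with Benjamini-Hochberg adjustment: they needed an adjusted p under 0.01, a change of more than 2.5-fold and libraries that did not overlap between the organs. The adjusted p given below refers to this test over all 21912 genes fitted, and a log2 difference is the cochlea minus the SOC. Levels are CPM, counts scaled to the library total and by the trimmed mean of M-values (TMM), and are given as the mean ± SD over 3 cochlea or 4 SOC libraries. Of the 16347 genes, 6769 were called (41.4%). The cochlea was higher for 3963 of them (24.2%) and the SOC for 2806 (17.2%). Over all 21912 genes fitted, those with counts in 1 organ included, 54.7% were called, 39.6% towards the cochlea and 15.1% towards the SOC. Most genes with counts in 1 organ are missing from the other organ's tables, and their calls took that 0 as measured. These shares are therefore not a base rate for the organ difference. A separate fit used only the genes present in every joined table with P0 libraries. It called 3395 of 15435 genes higher in the cochlea and 2876 higher in the SOC. Among the 6769 genes, 1206 were more than 10-fold higher in the cochlea and 577 were more than 10-fold higher in the SOC, and for 100-fold these numbers were 112 and 37. A further 4512 genes (27.6%) were near equal, with a 95% interval of the difference within 2-fold in either direction, and the remaining 5066 genes were neither called nor near equal. The median log2 difference over all tested genes was 0.14. The libraries of the organs did not overlap for 12448 genes (76.1%).

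**Figure D1:**
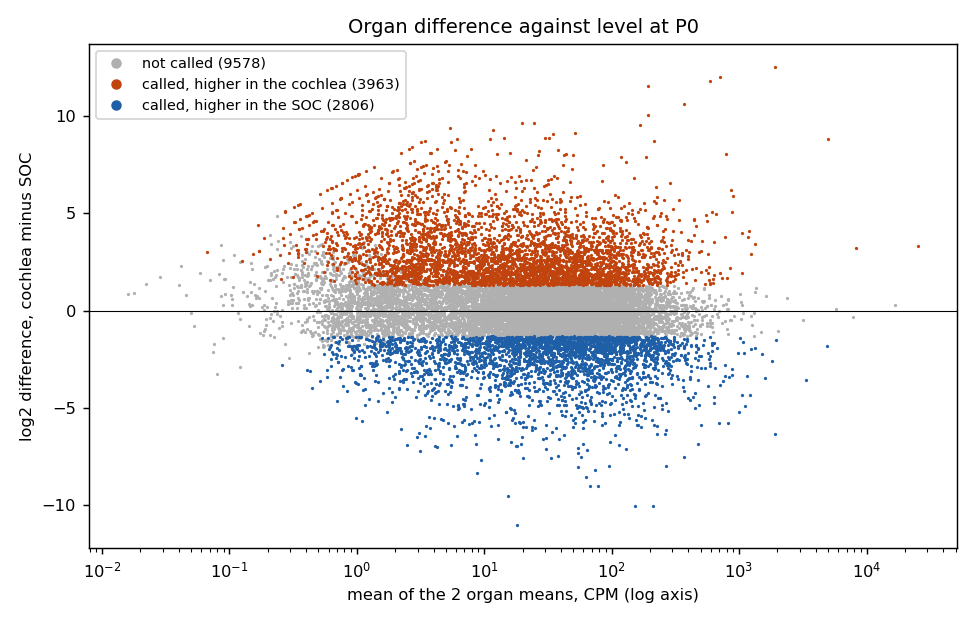
Each point is 1 of the 16347 genes with counts in both organs at P0, placed by the mean of both organ means in CPM (log axis) and by the log2 difference, cochlea minus SOC. The 3963 genes called higher in the cochlea lie above the line at 0, the 2806 called higher in the SOC lie below it, and genes that were not called are grey.

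The organ differences were then looked up in the libraries of the other ages, which were part of the same fit. Calls at E16 and P16 needed only the adjusted p and the fold change, and not libraries without overlap. The SOC libraries of E16 held markers of ear and cartilage, as given below, and their part in the counts at E16 was not tested. Of the 3963 genes higher in the cochlea at P0, 2209 were called in the same direction at E16, 2883 at P16 and 1836 at both ages. Opposite calls were made for 66 of them at E16 and for 49 at P16. Of the 2806 genes higher in the SOC at P0, 1521 were called in the same direction at E16, 1689 at P16 and 1120 at both ages. Opposite calls were made for 1 of them at E16 and for 54 at P16. As a base for these counts, the 16347 genes gave 2563 calls towards the cochlea and 1942 towards the SOC at E16. At P16 the same genes gave 4162 and 2552.

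Many of the largest differences towards the cochlea belonged to genes of acellular matrices of the inner ear. Tecta (ENSMUSG00000037705, chr9:42329619-42399929 on the minus strand of mm10) codes for alpha-tectorin, a main protein of the tectorial membrane, and Tectb codes for its partner beta-tectorin. Tecta was at 3209, 3716 and 4516 CPM in the cochlea libraries and 0.477, 0.641, 0.795 and 0.632 CPM in the SOC libraries. Every cochlea library lay far above every SOC library, with a mean of 3814 ± 659 CPM against 0.636 ± 0.13 CPM (log2 difference 12.53, SE 0.52, adjusted p 6.12e-13). Tectb (chr19:55180733-55196313) was at 350.2, 355 and 449 CPM in the cochlea libraries and 0.191, 0.0916, 0.0883 and 0.118 CPM in the SOC libraries, and only 11 SOC counts stood behind the lower values (log2 difference 11.57, SE 0.40, adjusted p 8.74e-14). Oc90, which codes for the main protein of otoconia, was at 1311, 1399.7 and 1552 CPM in the cochlea libraries and 0.191, 0.366, 0.618 and 0.197 CPM in the SOC libraries (log2 difference 12, SE 0.31, adjusted p 5.64e-15). Otogelin (Otog) and otoancorin (Otoa) attach these gels to the epithelium. Otog was at 529, 787 and 921 CPM in the cochlea libraries and 0.667, 0.458, 0.574 and 0.197 CPM in the SOC libraries (log2 difference 10.63, SE 0.39, adjusted p 1.55e-13), and Otoa was at 331 ± 47.5 CPM against 0.431 ± 0.222 CPM (log2 difference 9.57, SE 0.23, adjusted p 3.63e-15). In each of these genes all cochlea libraries lay far above all SOC libraries.

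Among the others of the 10 largest differences were genes of mesenchyme, cartilage-like matrix and epithelium. Otor (chr2:143078473-143081713), also named otoraplin and made by periotic mesenchyme, was at 1714, 881 and 952 CPM in the cochlea libraries and 0.334, 0.183, 0.618 and 0.158 CPM in the SOC libraries (log2 difference 11.83, SE 0.45, adjusted p 2.26e-13), and replicate 1 was the highest cochlea library. Epyc, a small proteoglycan, was at 386 ± 69.9 CPM against 0.351 ± 0.328 CPM (log2 difference 10.08, and 10.87 without SOC replicate 3), and 40.6% of its exon length overlaps exons of a gene on the other strand. Col2a1, the alpha chain of type II collagen, was at 8176, 10802 and 11003 CPM in the cochlea libraries and 16.2, 22.4, 44.3 and 6.12 CPM in the SOC libraries (log2 difference 8.81, SE 0.67, adjusted p 1.59e-09), which made it one of the most abundant messages of the cochlea. Lect1, which codes for chondromodulin, was at 432 ± 34.8 CPM against 0.999 ± 0.316 CPM (log2 difference 8.74). Esrp1, a splicing regulator of epithelial cells, was at 67.6, 64.6 and 75.9 CPM in the cochlea libraries and 0.0953, 0.0916, 0.0442 and 0.237 CPM in the SOC libraries (log2 difference 9.11, SE 0.27, adjusted p 1.91e-14), so that 11 counts over 4 SOC libraries stood against 5713 counts in the cochlea.

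The largest differences towards the SOC belonged to genes of synapses and of glia. Grm5, a metabotropic glutamate receptor (chr7:87584168-88134907), was at 0.281, 0.77 and 0.134 CPM in the cochlea libraries and 387, 387, 373 and 527 CPM in the SOC libraries (log2 difference -10.04, SE 0.62, adjusted p 9.14e-11), with replicate 4 the highest SOC library. Grm5 was nearly absent from the cochlea, where 32 counts were found in 3 libraries, and without cochlea replicate 2 its log2 difference was -11.05. Slc39a12, a zinc transporter, had 3 counts in the cochlea and 2775 in the SOC, a ratio of 836 after scaling with a 95% counting interval of 286 to 4060. Olfm3, a secreted olfactomedin of neurons, was at 0.281, 0.293 and 0.301 CPM in the cochlea libraries and 139.8, 157, 156 and 174 CPM in the SOC libraries (log2 difference -9.04, SE 0.33, adjusted p 1.29e-13). Glra2, the glycine receptor subunit of immature neurons (chrX:165129017-165327393), was at 0.843, 0.697 and 0.669 CPM in the cochlea libraries and 188, 168, 164 and 242 CPM in the SOC libraries (log2 difference -8.01, SE 0.43, adjusted p 1.46e-11). Cbln2, which organises synapses, was at 0.506 ± 0.10 CPM against 148 ± 9.28 CPM (log2 difference -8.2). The astrocyte genes Aqp4 and Mlc1 were at 532 ± 35.7 CPM and 125 ± 14.4 CPM in the SOC, against 2.07 ± 0.579 CPM and 0.331 ± 0.254 CPM in the cochlea, with log2 differences of -8.0 and -8.54, the latter -9.44 without cochlea replicate 2. Slc6a7, the proline transporter of glutamatergic terminals, and 3110035E14Rik were also among the 10 genes, with log2 differences of -7.59 and -9.01.

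**Figure D2:**
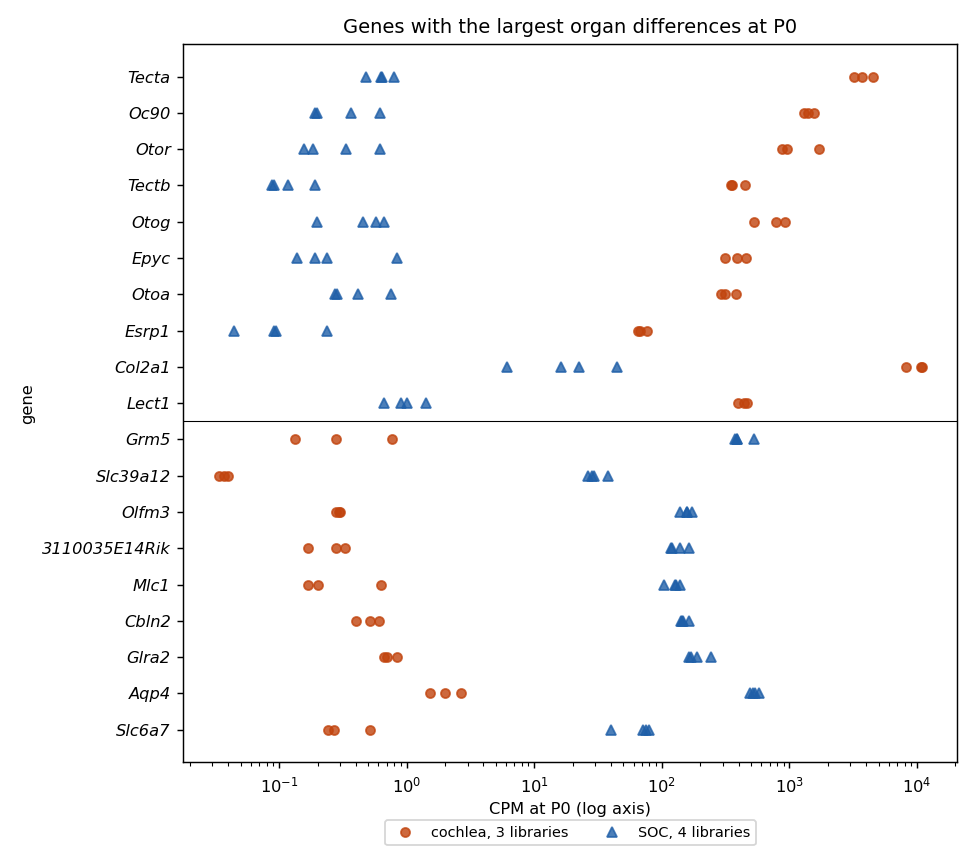
CPM at P0 (log axis) of genes with the largest difference in each direction, with 1 circle per cochlea library (3) and 1 triangle per SOC library (4). In each gene shown all libraries of one organ lie well above all libraries of the other.

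Promoter sequence was examined because genes with very different levels in the organs could differ in their start regions. The 120 bases before the RefSeq start (GRCm38.p6) are shown for the mesenchyme gene Otor, the matrix gene Tectb and a pair of SOC genes from those above, 5′ to 3′ along the gene. Capitals mark a match to TATAAA or AGATAA on either strand, and stretches without capitals held none of the motifs searched.
Otor chr2:143078273-143078392 (plus strand): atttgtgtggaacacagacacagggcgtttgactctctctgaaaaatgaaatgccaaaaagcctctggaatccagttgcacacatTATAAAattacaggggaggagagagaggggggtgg
Tectb chr19:55180606-55180725 (plus strand): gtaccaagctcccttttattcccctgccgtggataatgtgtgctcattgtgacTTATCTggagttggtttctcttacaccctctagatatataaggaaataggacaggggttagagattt
Glra2 chrX:165327394-165327513 (minus strand): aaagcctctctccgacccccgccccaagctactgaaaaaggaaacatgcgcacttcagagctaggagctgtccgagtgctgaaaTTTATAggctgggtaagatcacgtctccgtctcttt
Olfm3 chr3:114903958-114904077 (plus strand): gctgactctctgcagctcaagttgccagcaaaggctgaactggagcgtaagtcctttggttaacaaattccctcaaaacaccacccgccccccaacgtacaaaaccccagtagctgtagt
Motifs were searched on both strands in windows of 300 bases around the start. They were the TATA box core TATAAA, the E-boxes CAGCTG and CAGATG, which basic helix-loop-helix factors bind, the GATA factor motif AGATAA, and the sequence TGATTTAT. TATAAA was found in 7.66% of 3291 promoters of genes higher in the cochlea, in 8.46% of 2636 promoters of genes higher in the SOC, in 6.17% of 4379 promoters of near equal genes and in 13.6% of all 32851 promoters. CAGCTG was found in 17.8%, 17.9%, 13.9% and 16.3% of the same sets, and CAGATG in 13.1%, 13.2%, 10.6% and 17.2%. AGATAA was found in 6.99%, 6.56%, 6.01% and 11.2%, and TGATTTAT in 0.425%, 0.19%, 0.525% and 0.977%. Promoters rich in CpG made up 54.3% for genes higher in the cochlea, 55.0% for genes higher in the SOC, 70.9% for near equal genes and 33.3% of all promoters. The near equal set held more CpG-rich promoters than the sets that were higher in either organ. A match is a description of the letters only.

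The matrix genes were examined as a list, of which 14 genes had counts in both organs. All 14 were higher in the cochlea, with log2 differences from 4.6 to 12.53 and a median of 8.44. Their summed level was 21830.0, 24870.0 and 26930.0 CPM in the cochlea libraries and 106 to 268 CPM in the SOC libraries. Besides Tecta and Col2a1, the most abundant were Col9a2 at 1711 ± 130.5 CPM (log2 difference 5.05, SE 0.37, adjusted p 8.89e-10) and Col11a2 at 1754 ± 174 CPM (log2 difference 5.88, SE 0.43, adjusted p 7.85e-10), collagens that assemble with type II collagen. Cartilage markers moved with this list: 7 of 8 cartilage genes were higher in the cochlea (median 3.22), with summed levels of 511 to 579 CPM against 26.9 to 40.5 CPM. Most of the cochlear sum was Lect1, named above, at 395, 438 and 464 CPM in the cochlea libraries. Acan, the main proteoglycan of cartilage, was at 13.6, 25.6 and 12.9 CPM in the cochlea libraries and 5.67, 5.91, 9.94 and 3.71 CPM in the SOC libraries (log2 difference 1.46, SE 0.35, adjusted p 8.41e-04), which put it far below Col2a1 in the cochlea. Acan was not called without SOC replicate 4 (1.20) or without cochlea replicate 2 (1.01). Hapln1, which links proteoglycans and is also part of the nets around neurons, was higher in the SOC (log2 difference -2.8, SE 0.31, adjusted p 1.95e-07). The part of cartilage in the level of the collagens was not tested.

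Hair cell genes did not all separate the organs. Of 37 listed genes, 24 had counts in both organs, and 11 of these were higher in the cochlea, 1 was higher in the SOC and 12 were not called (median log2 difference 1.21). The other 13 had counts in the cochlea only, as had 5424 of the 22734 genes of the count table. The most abundant were genes that the SOC also expressed. Myo6, an unconventional myosin of stereocilia, was at 376, 333 and 362 CPM in the cochlea libraries and 134, 159, 170.5 and 160.2 CPM in the SOC libraries (log2 difference 1.19, SE 0.13, adjusted p 1.57e-07), and Myo7a was at 69.3, 98.8 and 113 CPM in the cochlea libraries and 44.1, 53.8, 44.5 and 32.8 CPM in the SOC libraries (log2 difference 1.1, SE 0.24, adjusted p 3.3e-04). For Pcdh15, a part of the tip link, the log2 difference was 0.93 (SE 0.14, adjusted p 5.56e-06). For each of these 3 genes every cochlea library lay above every SOC library, but the fold change stayed under 2.5. Jag2, a Notch ligand of hair cells, overlapped between the organs, at 52, 78.4 and 82.6 CPM in the cochlea libraries and 64, 55.8, 66.2 and 38.1 CPM in the SOC libraries (log2 difference 0.34, adjusted p 0.196). Slc17a8, the vesicular glutamate transporter of inner hair cells, ran against the list, with 6.18, 6.09 and 5.49 CPM in the cochlea libraries and 16.1, 17.9, 16.6 and 15.1 CPM in the SOC libraries (log2 difference -1.47, SE 0.23, adjusted p 1.08e-05).

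Other hair cell genes, chosen after their values were seen, separated the organs clearly. Ush1c, which codes for harmonin, was at 87, 99.5 and 108 CPM in the cochlea libraries and 0.334, 0.504, 0.53 and 0.158 CPM in the SOC libraries (log2 difference 8.01, SE 0.28, adjusted p 1.03e-13). Pou4f3, a transcription factor needed for hair cell survival, was at 18.1, 18.4 and 23.5 CPM in the cochlea libraries and 0.858, 0.55, 0.707 and 0.434 CPM in the SOC libraries (log2 difference 4.97, SE 0.28, adjusted p 2.4e-11), and Espn, an actin-bundling protein of stereocilia, had a log2 difference of 6.88 (adjusted p 2.68e-08). Otof, which is needed for transmitter release from hair cells, was at 88.8 ± 16.5 CPM against 12.9 ± 3.97 CPM (log2 difference 2.79, SE 0.24, adjusted p 6.63e-09). Among the genes with counts in the cochlea only, Loxhd1 was at 27.1 ± 4.52 CPM, Strc at 16.4 ± 2.97 CPM, Myo3a at 15.9 ± 1.98 CPM and Tmc1, a channel of the transduction complex, at 3.04 ± 0.482 CPM. These genes are missing from every SOC table, where a 0 allows up to 20 counts per library, so that Loxhd1 was at least 28.4-fold higher in the cochlea and Tmc1 at least 3.19-fold. Slc26a5, which codes for the motor protein of outer hair cells, was at only 1.47 ± 0.184 CPM in the cochlea at P0.

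Supporting cell genes were divided. All 16 listed genes had counts in both organs, and 7 were higher in the cochlea, 2 were higher in the SOC and 7 were not called (median 1.24). Gjb2, which codes for the gap junction protein connexin 26, was at 277, 414 and 371 CPM in the cochlea libraries and 12.9, 8.2, 9.28 and 9.2 CPM in the SOC libraries (log2 difference 5.16, SE 0.24, adjusted p 1.84e-12). Jag1, a Notch ligand of supporting cells, was at 209, 218 and 262 CPM in the cochlea libraries and 24, 20.6, 25 and 24.5 CPM in the SOC libraries (log2 difference 3.29, SE 0.13, adjusted p 2.61e-13). Fgfr3 and Hes5 were higher in the SOC. Fgfr3, a growth factor receptor that pillar cells and astrocytes share, was at 53.3, 65.8 and 67.3 CPM in the cochlea libraries and 220.0, 224, 266 and 119 CPM in the SOC libraries (log2 difference -1.74, SE 0.22, adjusted p 7.25e-07), and Hes5, a Notch target that neural progenitors also express, was at 4.13, 4.11 and 3.65 CPM in the cochlea libraries and 50.9, 38.4, 34.2 and 25.6 CPM in the SOC libraries (log2 difference -3.23, SE 0.29, adjusted p 1.63e-08). Exons of Hes5 and Fgfr3 overlap exons of a gene on the other strand over 31.8% and 13.9% of their length. The astrocyte list, given below, was higher in the SOC in the same libraries, and its part in these values was not tested. Cdkn1b, an inhibitor of the cell cycle, was at 138 ± 11.1 CPM against 74.1 ± 28.4 CPM and was not called (log2 difference 0.89, adjusted p 5.63e-04).

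Genes of epithelial junctions and keratins gave a uniform contrast. Of 22 genes, 21 were higher in the cochlea and 1 was not called (median 5.76), with summed levels of 1252 to 1533 CPM in the cochlea and 31.3 to 40.8 CPM in the SOC. Cdh1, the cadherin of epithelial cells, was at 372, 510.3 and 460.0 CPM in the cochlea libraries and 11.3, 6.0, 7.77 and 6.39 CPM in the SOC libraries (log2 difference 5.83, SE 0.30, adjusted p 8.58e-12). Epcam, an epithelial adhesion molecule, was at 215, 193 and 216 CPM in the cochlea libraries and 3.48, 3.8, 3.22 and 2.96 CPM in the SOC libraries (log2 difference 5.95, SE 0.17, adjusted p 1.22e-14), and the keratin gene Krt18 was at 65.7 ± 7.14 CPM against 1.63 ± 0.34 CPM (log2 difference 5.33, SE 0.26, adjusted p 4.64e-12).

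Transcription factors of the otic lineage were higher in the cochlea for 15 of 18 genes, and 3 were not called (median 4.29). Eya1, a coactivator of the forming ear, was at 327 ± 25.4 CPM in the cochlea against 8.58 ± 1.0 CPM in the SOC, with a log2 difference of 5.25 (SE 0.13). Gata3, needed for the prosensory domain, was at 208, 238 and 289 CPM in the cochlea libraries and 4.48, 6.37, 7.2 and 5.29 CPM in the SOC libraries (log2 difference 5.39, SE 0.25, adjusted p 2.3e-12). Pou3f4, a factor of the otic mesenchyme, was at 280.4, 336 and 300.5 CPM in the cochlea libraries and 13.8, 14.3, 12.5 and 15.6 CPM in the SOC libraries (log2 difference 4.44, SE 0.13, adjusted p 1.39e-14). Of the 3 that were not called, Dlx5 had a log2 difference of 1.58, and it was called at 2.56 without SOC replicate 4. Pax8 had counts in the SOC only, at 8.68 ± 4.26 CPM, and Otx1 in the cochlea only, at 8.39 ± 2.08 CPM.

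The genes of the stria vascularis and endolymph were higher in the cochlea for 6 of 8 genes (median 2.73). Slc12a2, the cotransporter that loads strial cells with potassium, was at 662, 569 and 521 CPM in the cochlea libraries and 88.7, 92.6, 91.9 and 132 CPM in the SOC libraries (log2 difference 2.53, SE 0.27, adjusted p 1.32e-07). Esrrb and Cldn11, needed by the marginal and basal cells of the stria, had log2 differences of 2.94 and 2.24 (adjusted p 1.64e-06 and 4.57e-09). Kcne1, the partner of the potassium channel subunit Kcnq1, had counts in the cochlea only, at 52.8 ± 14 CPM, at least 55.4-fold higher. Kcnq1 itself was at 36.1, 59.9 and 50.3 CPM in the cochlea libraries and 1.29, 0.871, 0.839 and 0.592 CPM in the SOC libraries (log2 difference 5.77, SE 0.38, adjusted p 1.85e-10). Met, a receptor of the hepatocyte growth factor, was not called, at 33.3, 38.1 and 32.9 CPM in the cochlea libraries and 19.3, 14.8, 17.8 and 74.1 CPM in the SOC libraries (log2 difference 0.14, adjusted p 0.748), and without SOC replicate 4, the highest library, its log2 difference was 0.94.

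Cell types other than the epithelium were also present in the cochlear libraries. The 7 mesenchyme genes were all higher in the cochlea (median 4.44), as in Tbx18 at 349 ± 6.96 CPM against 7.52 ± 2.15 CPM (log2 difference 5.53). Crym, a thyroid hormone-binding protein of fibrocytes, was at 464, 396 and 383 CPM in the cochlea libraries and 5.81, 5.18, 5.08 and 39.8 CPM in the SOC libraries (log2 difference 4.88, SE 0.57, adjusted p 3.87e-07), and without SOC replicate 4 its log2 difference was 6.21. Of the 7 melanocyte genes, 4 were higher in the cochlea (median 3.16). Dct, an enzyme of pigment synthesis, was at 91.4, 118 and 98.6 CPM in the cochlea libraries and 0.0953, 0, 0.221 and 0.355 CPM in the SOC libraries (log2 difference 9.15, SE 0.60, adjusted p 2.23e-10). Pmel and Tyr, also of the pigment pathway, had log2 differences of 6.08 and 7.17, and without SOC replicate 4 those of Tyr and Dct were 8.14 and 9.77, while their regulator Mitf was not called at 1.01. Of 10 Schwann cell genes, 7 were higher in the cochlea (median 1.66), among them Erbb3, the neuregulin receptor, at 157 ± 27.8 CPM against 10 ± 2.38 CPM (log2 difference 3.98, adjusted p 2.55e-12). Pmp22 and Prx, proteins of peripheral myelin, had log2 differences of 1.69 and 1.64. Markers of the spiral ganglion were split, with Gata3 and Runx1 (3.75) higher in the cochlea and Prph (-2.78) and Neurod1 (-6.61) higher in the SOC. Ntrk3, a neurotrophin receptor of auditory neurons that brainstem neurons also express, was at 88.9, 116 and 105 CPM in the cochlea libraries and 106, 105, 126 and 140.0 CPM in the SOC libraries and overlapped between the organs (log2 difference -0.21, adjusted p 0.302). The parts of these cell types in other differences were not tested.

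**Figure D3:**
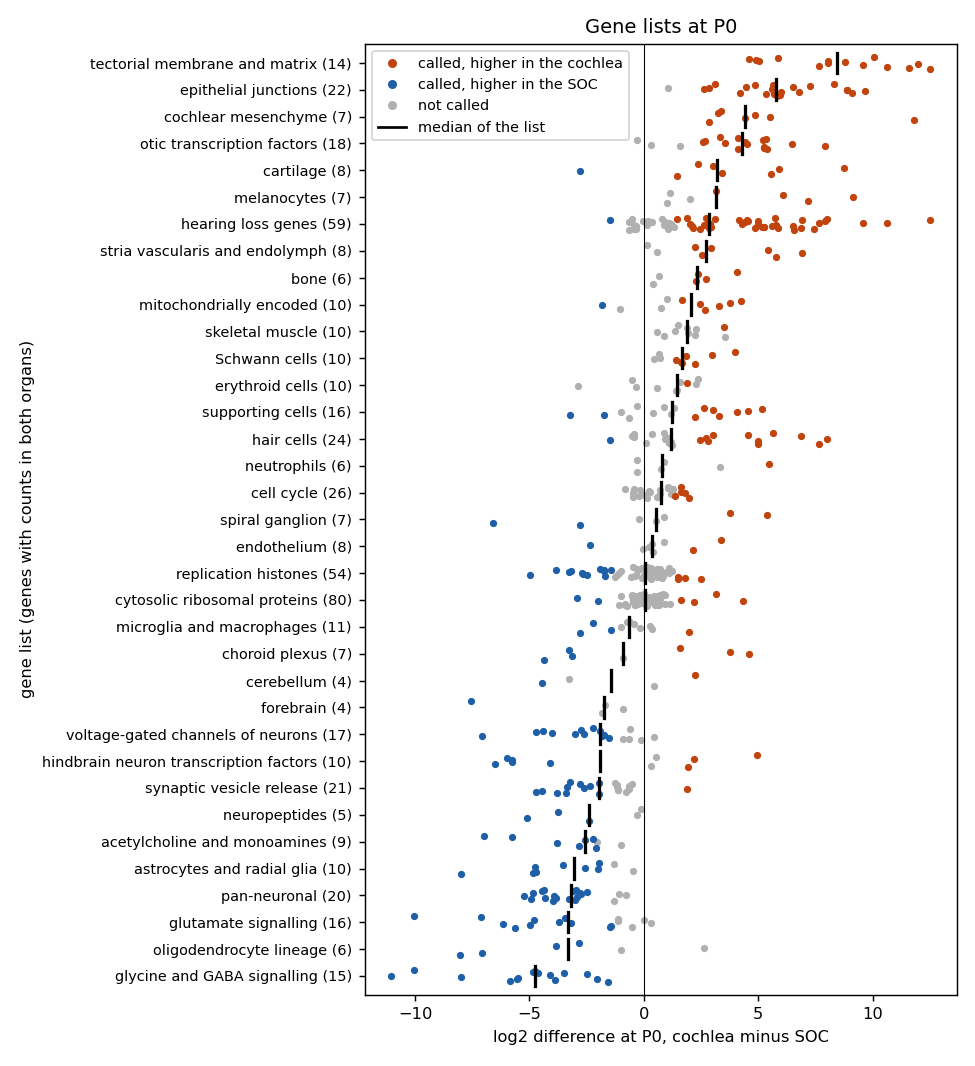
Log2 difference at P0, cochlea minus SOC, of every listed gene with counts in both organs, with 1 point per gene, the number of genes in brackets and a black bar at the median of each list. The matrix list has the highest median (8.44), the glycine and GABA list the lowest (-4.77), and ribosomal proteins lie around 0 (median 0.05).

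On the side of the SOC, the genes common to neurons were higher for 17 of 20 genes, and none was higher in the cochlea (median -3.18). Their summed level was 13400.0 to 14810.0 CPM in the SOC and 919 to 1236 CPM in the cochlea. Tubb3, the tubulin of neurons, was at 47.4, 90.5 and 76.3 CPM in the cochlea libraries and 2567, 2162, 1937 and 2012 CPM in the SOC libraries (log2 difference -4.93, SE 0.21, adjusted p 7.2e-13). Map2 and Mapt, proteins that bind microtubules in dendrites and axons, were at 2312 ± 402 CPM and 1328 ± 134 CPM in the SOC, against 115 ± 12 CPM and 92.5 ± 23.5 CPM in the cochlea. Nefl, a neurofilament subunit, was at 49, 56.1 and 51.3 CPM in the cochlea libraries and 1973, 1924, 2400.0 and 1466 CPM in the SOC libraries (log2 difference -5.22, SE 0.26, adjusted p 6.65e-12), and 32.8% of its exon length overlaps exons on the other strand. Every gene of the list was at 6.94 CPM or more in every cochlea library.

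The machinery of vesicle release was less uniform. Of 21 genes, 11 were higher in the SOC, 1 was higher in the cochlea and 9 were not called (median -1.94). Snap25, of the fusion complex, was at 19.3, 19.6 and 23.4 CPM in the cochlea libraries and 417, 469, 525 and 435 CPM in the SOC libraries (log2 difference -4.47, SE 0.23, adjusted p 8.5e-12), and the vesicle protein genes Syp and Sv2a had log2 differences of -3.8 and -2.61. Syt1, the calcium sensor of fast release, was at 85.9 ± 7.08 CPM against 330.2 ± 34 CPM (log2 difference -1.94, SE 0.19, adjusted p 3.24e-08). Vamp2, a vesicle protein of the same complex, ran against the list at 115, 138 and 150.4 CPM in the cochlea libraries and 37.1, 36.7, 44.2 and 26.9 CPM in the SOC libraries (log2 difference 1.89, SE 0.20, adjusted p 8.64e-08).

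All 15 glycine and GABA genes with counts in both organs were higher in the SOC (median -4.77). The smallest difference was that of Slc6a9, a glycine transporter of glia (-1.58), and Glra3, a glycine receptor subunit, had 1 count in the cochlea against 3286 in the SOC. Slc12a5, the potassium and chloride cotransporter that keeps chloride low in neurons, was at 5.58, 8.95 and 8.87 CPM in the cochlea libraries and 361, 409, 457 and 190.0 CPM in the SOC libraries (log2 difference -5.5, SE 0.37, adjusted p 2.72e-10), and SOC replicate 4 was the lowest SOC library. The GABA-degrading enzyme gene Abat had a log2 difference of -2.03. The GABA-synthesising enzymes Gad1 and Gad2, chosen after their values were seen, were at 161 ± 5.63 CPM and 101 ± 20.9 CPM, against 10.8 ± 1.83 CPM and 2.18 ± 0.337 CPM. Slc6a5, the transporter of glycinergic neurons, Slc32a1, the vesicular transporter of both transmitters, and Glra1, the adult glycine receptor subunit, had counts in the SOC only, at 84 ± 25.6 CPM, 46.1 ± 19.7 CPM and 8.03 ± 3.86 CPM. Against the floor of 20 counts per cochlea library they were at least 105-fold, 57.5-fold and 10-fold higher. The subunit Glra2 of the immature receptor stood at 190.4 ± 35.9 CPM at this age.

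Genes of glutamate signalling were higher in the SOC for 11 of 16 genes and none was higher in the cochlea (median -3.32). Slc17a6, the vesicular transporter of brainstem neurons, was at 8.07, 8.48 and 8.1 CPM in the cochlea libraries and 398, 412, 407 and 402 CPM in the SOC libraries (log2 difference -5.62, SE 0.25, adjusted p 1.54e-12). Gria2, an AMPA receptor subunit, was at 8.75, 7.41 and 6.23 CPM in the cochlea libraries and 426, 440.4, 484 and 761 CPM in the SOC libraries (log2 difference -6.15, SE 0.34, adjusted p 2.14e-11), with SOC replicate 4 highest.

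Of the 9 genes for acetylcholine and monoamines, 7 were higher in the SOC (median -2.55). Tph2, which makes serotonin in raphe neurons next to the SOC, was at 0.12, 0.257 and 0.435 CPM in the cochlea libraries and 39.8, 34.7, 39.5 and 28.7 CPM in the SOC libraries (log2 difference -6.98, SE 0.33, adjusted p 3.18e-12), and its log2 difference was -7.58 without cochlea replicate 3. Ache, Slc5a7 and Slc18a2 had log2 differences of -2.83, -2.08 and -2.55. Of 16 listed neuropeptide genes, 10 had counts in the SOC only, led by Sst, which codes for somatostatin, at 67.7 ± 21.3 CPM. Tac1 and Penk, precursors of substance P and enkephalin, were at 33.2 ± 5.02 CPM and 54.7 ± 19.4 CPM, against 0.941 ± 0.16 CPM and 3.99 ± 1.75 CPM in the cochlea (log2 differences -5.13 and -3.77), and Calca had a log2 difference of -2.39. Of 17 voltage-gated channels, 12 were higher in the SOC (median -1.91). Kcnd2, a potassium channel of dendrites, was at 1.85, 2.05 and 1.71 CPM in the cochlea libraries and 242, 264, 276 and 239 CPM in the SOC libraries (log2 difference -7.09, SE 0.25, adjusted p 1.03e-13). The sodium channel genes Scn2a1 and Scn3a were at 511 ± 55.9 CPM and 347 ± 24.7 CPM in the SOC, against 19.3 ± 0.637 CPM and 16.5 ± 1.48 CPM in the cochlea.

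Hox genes of the hindbrain were found mainly in the SOC. Of 15 listed Hox genes of groups 1 to 5, 12 had counts in the SOC only, and Hoxa2 was the 1 gene with counts in both organs. Hoxa2 was at 1.93, 1.61 and 2.11 CPM in the cochlea libraries and 9.1, 13.2, 12.8 and 8.61 CPM in the SOC libraries (log2 difference -2.53, SE 0.22, adjusted p 7.58e-09). In several of the hindbrain genes SOC replicate 4 was the lowest SOC library. Hoxb3 and Hoxb2 were at 12.2 ± 3.04 CPM and 9.9 ± 2.69 CPM in the SOC, at least 15.2-fold and 12.3-fold higher. Of 10 transcription factors of hindbrain neurons with counts in both organs, 5 were higher in the SOC, 3 were higher in the cochlea and 2 were not called, and 9 more had counts in the SOC only. Zic1, which patterns the dorsal hindbrain, was at 2.97, 5.1 and 4.72 CPM in the cochlea libraries and 257, 260.2, 201 and 202 CPM in the SOC libraries (log2 difference -5.75, SE 0.48, adjusted p 5.17e-09). Its relative Zic2 ran the other way, at 184, 274 and 266 CPM in the cochlea libraries and 58.5, 59, 53.4 and 39.8 CPM in the SOC libraries (log2 difference 2.2, SE 0.31, adjusted p 3.68e-06), as did Gata2 (4.94) and Foxp1 (1.91). Lhx5 and Evx2 had counts in the SOC only, at 18.2 ± 5.91 CPM and 10.2 ± 1.34 CPM.

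Glia of the brain were part of the SOC libraries. Of 10 genes of astrocytes and radial glia, 8 were higher in the SOC (median -3.04), and the summed level was 5457 to 7169 CPM against 1383 to 1501 CPM. Fabp7, a lipid-binding protein of radial glia, was at 64, 33.3 and 38.9 CPM in the cochlea libraries and 1366, 1221, 1041 and 1313 CPM in the SOC libraries (log2 difference -4.77, SE 0.32, adjusted p 3.16e-10). Aldoc and the glutamate transporter gene Slc1a3 had log2 differences of -3.53 and -1.99, whereas Sparcl1 was not called at -1.3, just inside the fold threshold. Sparcl1 was called without SOC replicate 2 (-1.37) or 4 (-1.48) and without cochlea replicate 2 (-1.37) or 3 (-1.45). Of 6 oligodendrocyte genes, 4 were higher in the SOC. Olig1, a transcription factor of the lineage, was at 0, 1.14 and 0.0669 CPM in the cochlea libraries and 108, 125, 144 and 54.7 CPM in the SOC libraries (log2 difference -8.05, SE 0.73, adjusted p 1.45e-08), with a log2 difference of -11.41 without cochlea replicate 2. Gpr17, a receptor of maturing cells, had a log2 difference of -7.06 and Mag, a protein of myelin, one of -3.83. Of 11 microglial genes, 3 were higher in the SOC, 1 was higher in the cochlea and 7 were not called, a share of calls near that of all genes tested (41.4%). The latter was Tmem119, which bone-forming cells also express (1.96), while Csf1r, the receptor that microglia depend on, was at 42.2, 63.7 and 44.4 CPM in the cochlea libraries and 43.4, 38.5, 42 and 32.5 CPM in the SOC libraries (log2 difference 0.36, adjusted p 0.0533).

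Vascular and blood genes were mixed. Of 8 endothelial genes, 2 were higher in the cochlea, 1 was higher in the SOC and 5 were not called, 4 of them near equal. Kdr, the main receptor of the vascular growth factor, was at 47.7, 53.2 and 56.3 CPM in the cochlea libraries and 54.2, 51.6, 54.4 and 56.8 CPM in the SOC libraries (log2 difference -0.05, 95% interval -0.23 to 0.13), so that the organs held like levels of it. Cldn5, a tight junction protein of the blood-brain barrier, was higher in the SOC at 13.7, 22.7 and 17.4 CPM in the cochlea libraries and 119, 86.9, 94.6 and 70.7 CPM in the SOC libraries (log2 difference -2.37, SE 0.25, adjusted p 1.08e-07), and Cdh5, the cadherin of endothelium, was higher in the cochlea (log2 difference 2.15, SE 0.21, adjusted p 3.04e-08). Of 10 erythroid genes, 9 were not called (8 without SOC replicate 4 or without cochlea replicate 1), with summed levels of 293 to 548 CPM in the cochlea and 158 to 327 CPM in the SOC. The choroid plexus list was split, with 3 genes higher in each organ. Ttr, its main secreted product, was at 17.3, 22.5 and 21 CPM in the cochlea libraries and 426, 395, 188 and 655 CPM in the SOC libraries (log2 difference -4.36, SE 0.93, adjusted p 3.1e-04), whereas the water channel gene Aqp1 and Clic6 were higher in the cochlea (4.58 and 3.77). Of 10 muscle genes, 1 was called, namely Des (3.49), while 6 were called without cochlea replicate 1 and 2 without SOC replicate 2. Of 6 bone genes 4 were higher in the cochlea, such as Runx2 (4.06) and Spp1 (2.37).

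Genes in which mutations cause hearing loss were examined as a list of 76. Of these, 59 had counts in both organs, and 39 were higher in the cochlea, 1 was higher in the SOC and 19 were not called (median 2.85). Another 15 had counts in the cochlea only and none had counts in the SOC only. As a base, 5424 of the 22734 genes of the count table had counts in the cochlea only and 848 in the SOC only. Of the 15, Ceacam16 was at 0.558 ± 0.42 CPM, under the SOC floor of 0.953 CPM, so it shows no difference. The summed level of the whole list was 11410.0 to 14370.0 CPM in the cochlea and 2127 to 2192 CPM in the SOC. Actg1, a cytoskeletal actin, was at 458 ± 114 CPM against 721 ± 60.7 CPM (log2 difference -0.65, adjusted p 0.0111), and was not called. Tmprss3, a protease needed by hair cells, had counts in the cochlea only, at 31.6 ± 4.91 CPM. Rdx, which anchors the membrane of stereocilia to actin, was at 241, 204 and 213 CPM in the cochlea libraries and 199, 207, 202 and 279 CPM in the SOC libraries (log2 difference -0.02) and was chosen after its value was seen as a hearing loss gene at a like level in both organs. The list overlaps with those of hair cells, matrix and stria, so its counts are not separate from theirs.

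Related genes were compared in 11 pairs, with a form known from neurons of the brain set against a form known from hair cells or from many cell types. Because lengths differ, levels of the forms were compared in RPKM, which is CPM divided by length in kilobases, computed with the exon length of GENCODE M21. Of the chloride transporters, Slc12a2 was at 53.5 RPKM in the cochlea and 9.28 in the SOC, while Slc12a5 was at 1.05 and 47.6 RPKM. The inward transporter was thus the higher form in the cochlea and the outward transporter in the SOC. Snap23, the general fusion protein, was higher in the cochlea (log2 difference 1.55, SE 0.19, adjusted p 8.93e-07), and Snap25 was at 3.06 RPKM in the cochlea and 68.0 RPKM in the SOC. Tubb6 was higher in the cochlea (log2 difference 2.39, SE 0.20, adjusted p 4.19e-09), against Tubb3 in the SOC. Snap23 was not called without cochlea replicate 1 (1.26).

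In 6 other pairs only 1 form was called. Ptbp1, a splicing repressor that neurons switch off, was at 222, 353 and 341 CPM in the cochlea libraries and 32.5, 43.1, 39.2 and 26.1 CPM in the SOC libraries (log2 difference 3.12, SE 0.29, adjusted p 1.82e-08), and its neuronal relative Ptbp2 was not called (log2 difference -0.77, SE 0.28, adjusted p 0.0194). Cdh2, the cadherin of neural tissue, was not called (log2 difference -0.78, SE 0.17, adjusted p 3.03e-04), in contrast to Cdh1 above. Elavl3, an RNA-binding protein of neurons, was higher in the SOC (log2 difference -3.0, SE 0.32, adjusted p 1.08e-07), and its general relative Elavl1 was not called at 0.73. Kif5a, a motor of axonal transport, was higher in the SOC (log2 difference -2.53, SE 0.25, adjusted p 3.45e-08), and Kif5b was not called at -1.01. Cacna1d, the calcium channel of hair cells, was higher in the cochlea (log2 difference 1.88, SE 0.13, adjusted p 4.8e-10), and Cacna1a, the channel of central synapses, was not called at -0.58. Pou4f1 was not called at 0.53, and neither dynamin passed, with log2 differences of 0.85 for Dnm2 and -0.56 for Dnm1. Both vesicular glutamate transporters, Slc17a8 and Slc17a6, were higher in the SOC, but by different amounts.

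**Figure D4:**
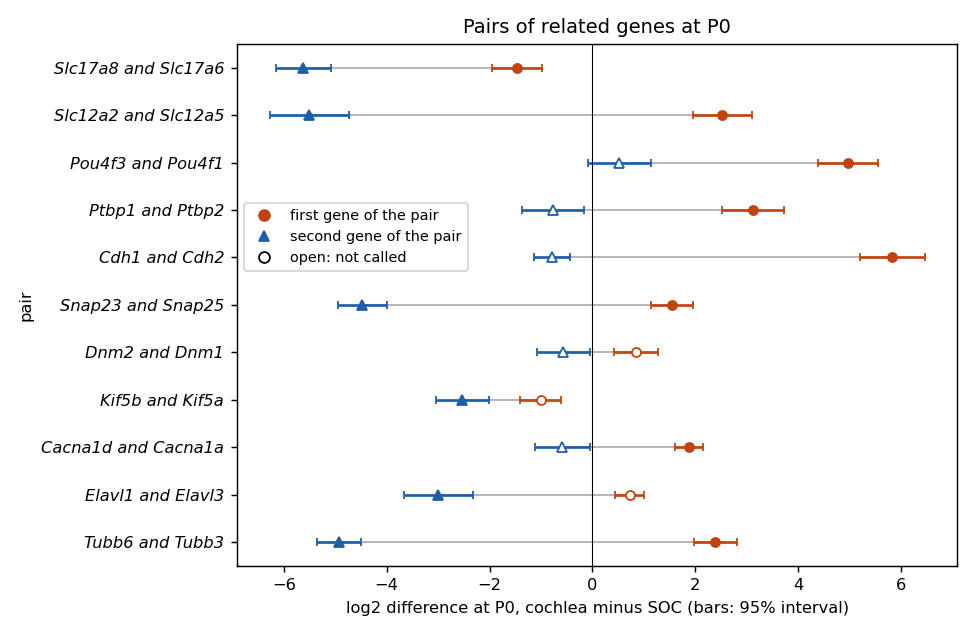
Log2 difference at P0, cochlea minus SOC, of both genes of 11 related pairs (first gene a circle, second gene a triangle), with bars for the 95% interval of the fit and open symbols for genes that were not called. In each of the 11 pairs the first gene lies to the right of the second and the bars do not overlap, while both genes lie left of 0 for Slc17a8 with Slc17a6 and for Kif5b with Kif5a, and right of 0 for Pou4f3 with Pou4f1.

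Genes of basic cell functions were examined beside these lists. Of 80 genes of cytosolic ribosomal proteins, 74 were not called, 58 of them near equal, and the median was 0.05. Rpl4 and Rps2 had log2 differences of 0.55 and -0.04, whereas Rpl22l1 (-2.02) and Rpl23a (-2.91) were higher in the SOC. Of the exons of Rpl23a, 59.7% overlap a gene on the other strand, and it was not stated whether strand was used in counting. The share was 20.6% for Tbx18, 20.7% for Ptbp1, 24.9% for Slc32a1, 27.1% for Hist2h2ac, 27.3% for Hoxb2, 29.8% for Ccer2, 30.2% for Slc6a9 and 52.9% for Hoxb3, besides those given above. Of 26 cell cycle genes, 21 were not called and 5 were higher in the cochlea (median 0.73). Mki67, a marker of dividing cells, was at 129, 164 and 169.7 CPM in the cochlea libraries and 31, 51.5, 33.9 and 42.6 CPM in the SOC libraries (log2 difference 1.96, SE 0.48, adjusted p 0.00101), whereas Top2a overlapped between the organs at 93.2, 73 and 82.5 CPM in the cochlea libraries and 64.9, 73.7, 44.5 and 115 CPM in the SOC libraries (log2 difference 0.15). Of 54 replication histone genes, 12 were higher in the SOC and 4 were higher in the cochlea (median 0.07). The 4 were the linker histone genes Hist1h1b, Hist1h1c, Hist1h1e and Hist1h1t (1.51, 1.47, 1.79 and 2.48), and 10 of the 12 code for histone H2A, such as Hist2h2ac (-2.66). Hist1h1b was not called when any 1 P0 library was left out (1.27 to 1.57), Hist1h1t kept its call only without SOC replicate 2, and Hist1h1c lost it without cochlea replicate 3 (1.31). Core histone genes are near copies of each other, so that their single values are uncertain. Of 10 mitochondrially encoded genes with counts in both organs, 6 were higher in the cochlea, 1 was higher in the SOC and 3 were not called (median 2.07). Another 6 had counts in the SOC only. The 1 higher in the SOC was mt-Co1, at 2232, 1974 and 2274 CPM in the cochlea libraries and 5752, 7766, 8094 and 8699.6 CPM in the SOC libraries (log2 difference -1.81, SE 0.25, adjusted p 2.79e-06). Of those higher in the cochlea, mt-Cytb was at 862, 1315 and 1508 CPM in the cochlea libraries and 133, 602, 614 and 183 CPM in the SOC libraries (log2 difference 1.68, SE 0.51, adjusted p 0.00598). In mt-Cytb, SOC replicates 1 and 4 were far below replicates 2 and 3. The call of mt-Cytb was lost without SOC replicate 1 (1.40) or 4 (1.37) and without cochlea replicate 2 (1.56) or 3 (1.43). The summed level of all 16 mitochondrial genes was 7979, 8497 and 9753 CPM in the cochlea libraries. In the SOC libraries the sum was 7657, 12750, 13280 and 12470 CPM, so it did not follow the number of calls. Of the 6 genes with counts in the SOC only, mt-Co2 and mt-Co3 were at just 0.756 and 2.74 CPM. These levels are far below that of mt-Co1, and the reason was not tested.

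The sets also differed in properties that had no part in the test. Genes higher in the cochlea were protein coding in 81.2% of cases, those higher in the SOC in 93.4% and near equal genes in 96.1%. The median GC content of their transcripts was 51.8%, 47.7% and 49.6%. Across genes, the log2 difference had a Spearman correlation of 0.164 with GC content, 0.018 with exon length and -0.054 with the span of the gene, given as a description, since the genes share libraries and organ goes together with kit.

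The Nnt locus distinguishes substrains of C57BL/6 mice. C57BL/6J mice are known to carry a deletion within Nnt, a mitochondrial enzyme. Nnt was at 83.1, 89.6 and 90.9 CPM in the cochlea libraries and 17.3, 16.5, 16.1 and 19.8 CPM in the SOC libraries (log2 difference 2.33, SE 0.10, adjusted p 1.0e-12). Xist, expressed from the inactive X of females, was at 693, 538 and 939.9 CPM in the cochlea libraries and 66.6, 92.4, 138 and 64.4 CPM in the SOC libraries (log2 difference 3.0, SE 0.35, adjusted p 3.57e-07), while the Y-linked gene Ddx3y overlapped at 89.3, 51.7 and 38.2 CPM in the cochlea libraries and 90.9, 72.8, 38.1 and 172 CPM in the SOC libraries, so that both sexes were present in the libraries of both organs.

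The last comparison asked which organ differences changed at birth. The organ difference at P0 was set against the mean of those at E16 and P16, in the fit over all 20 libraries, at an adjusted p under 0.01 and a size over 2.5-fold. Of 16347 genes, 1711 passed (10.5%, against 7.85% of all genes fitted), 871 more towards the cochlea at P0 (5.33%) and 840 more towards the SOC (5.14%). Tecta headed the first group with a contrast of 7.86 (SE 0.62, adjusted p 6.15e-08). In the cochlea Tecta was at 1467 ± 16.3 CPM at E16, 3814 ± 659 at P0 and 6.16 ± 1.66 at P16, so that the P0 libraries were the highest. In the SOC Tecta was at 30.5 ± 11.2 CPM at E16 and under 1 CPM at P0 and P16. The E16 SOC was cut from frozen whole heads, and markers of ear and cartilage were present in it: Oc90 was at 271 ± 15.4 CPM and Col2a1 at 5478 CPM on average. Both were lower in the SOC at P0, as given above. Matn1, a matrix protein of cartilage, was at 309 CPM in the SOC at E16 and at 1.52 ± 1.04 CPM at P0, against 17.0 and 71.6 ± 2.82 CPM in the cochlea, with a contrast of 7.5 (SE 0.54, adjusted p 2.23e-08). Col9a1 (5.13, SE 0.35) and Cytl1 (7.04, SE 0.68, and 7.86 without SOC replicate 3 of P0), which are also expressed by cartilage, and Ccer2 (5.52, SE 0.34) completed the 5 genes. The part of the material collected with the E16 SOC in these contrasts was not tested.

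Towards the SOC, Kcnj16 had the largest contrast, of -4.08 (SE 0.25, adjusted p 5.48e-09). Kcnj16, a potassium channel, was higher in the SOC at P0 at 2.25, 1.91 and 2.38 CPM in the cochlea libraries and 20.3, 21.9, 24.7 and 17.6 CPM in the SOC libraries and higher in the cochlea at P16, with 268 CPM against 69.4 CPM. Neurod1, a factor of young neurons, was at 0.241, 0.293 and 0.234 CPM in the cochlea libraries and 19.3, 29.2, 26.2 and 27.4 CPM in the SOC libraries at P0 (contrast -3.98, SE 0.76), and in the SOC its level at P0 was above those at E16 and P16, with means of 9.82 and 9.28 CPM. The size of the contrasts of Gda and Mpped1 rested in part on SOC replicate 4. Gda, a guanine deaminase, was at 18.2, 15, 21.2 and 74.7 CPM and Mpped1 at 30.5, 40.5, 27.7 and 209 CPM in SOC replicates 1 to 4. Their contrasts of -3.80 and -3.65 were -2.95 and -2.40 without replicate 4. Both still passed there, with adjusted p of 0.00135 and 1.23e-06 in the same test.

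**Figure D5:**
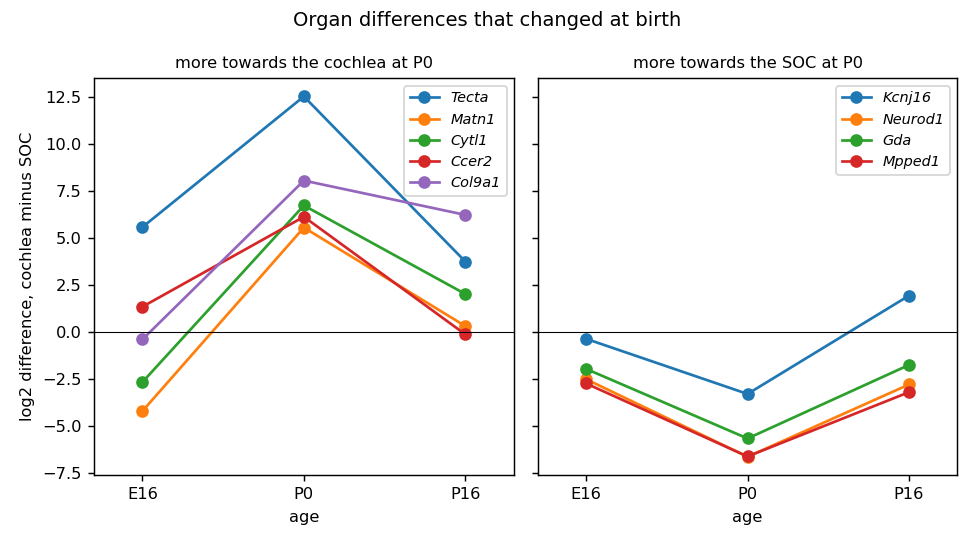
Log2 difference between the organs, cochlea minus SOC, at E16, P0 and P16 (1 line per gene) for genes with the largest contrast of P0 against E16 and P16, 5 towards the cochlea (left) and 4 towards the SOC (right). All 5 genes on the left peak at P0, and the 4 on the right have their lowest value at P0.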

How the data were processed

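RNA of pooled mouse cochlear sensory epithelia and pooled SOC tissue had been sequenced by different laboratories with different total RNA kits, after depletion of ribosomal RNA. Per the labels and the submitters' processing notes, the authors aligned reads to mm10 with STAR 2.5.3a and counted them per gene with HTSeq, and the deposited values are raw counts per gene, not normalized. The annotation version and the use of strand in counting were not given in the sources used here. The table had been joined from 1 cochlea table and 3 SOC tables, and a gene left out of a table stands there as 0.

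The counts were fitted with edgeR 4.0.16 in R 4.3.3 (quasi-likelihood test, TMM factors, 6 groups of organ and age, 20 libraries), for the 21912 genes that reached more than 0.5 CPM in 3 or more libraries of some group. Called, near equal and the contrast at birth are defined beside their first use. A recovery test on simulated counts found 100% of 200 changed genes and made 0 false calls. Its changes were 4-fold or 8-fold in either direction, and every gene was given the same spread. It checks that the code runs as meant. It cannot give the rate of false or missed calls in the real libraries, whose spread was more uneven. The genes named were the 10 members with the largest difference in each direction that had at least 20 CPM in the higher organ and a count in each of 7 P0 libraries, the 4 most abundant of each list with any called against its direction, related pairs, a substrain locus and the 5 largest contrasts at birth in each direction. Other genes, and those with counts in 1 organ only, were named after their values were seen. Some genes that the rule named are not reported here, in the text or the plots, and they remain in the counts and list medians. The members and lists were chosen with earlier results of these data known. Alternatives were other scaling factors, filters and gene sets, DESeq2 1.42.0, a test against the fold threshold, GC and length offsets, a replicate block and each P0 library left out. Intervals and floors cover counting error or the spread of libraries only, and small RNA libraries were not analysed here. Gene positions are those of GENCODE M21, and 2549, 2018 and 3416 genes of the sets higher in the cochlea, higher in the SOC and near equal matched a RefSeq promoter.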

Additional observations from a re-analysis of the deposited data

Results flagged for a closer look

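At P0, 187 values of the SOC libraries were searched for 1 library far from the other 3, and 17 had one. The rule passes about 1 in 20 independent normal values. That rate does not apply here, because list sums were searched beside their own genes. Some genes had also been chosen after their values were seen or by contrasts that use these libraries. Replicate 4 was the library apart in 14 of the 17, and it was the highest in each. Its forebrain list stood at 296 CPM against 63.8 to 81.7 CPM in the others. Of the genes of that list, Neurod6 at 162 CPM, Tbr1 at 10.4 CPM and Emx1 at 5.49 CPM were apart as well. Not every gene of the list was: in SOC replicates 1 to 4 Eomes was at 11.7, 14.1, 10.1 and 11.8 CPM. Neurod2 was at 34.8, 41.3, 32.0 and 52.9 CPM in the same libraries. Mpped1 was at 209 CPM against 27.7 to 40.5 CPM, Gda at 74.7 CPM against 15 to 21.2 CPM, Met at 74.1 CPM against 14.8 to 19.3 CPM and Crym at 39.8 CPM against 5.08 to 5.81 CPM. The receptor gene Grm5 was high there too, at 527 CPM, as were Ptbp2 at 559 CPM, Kif5b at 522 CPM and Slc12a2 at 132 CPM. The summed lists of the stria vascularis at 252 CPM and of the cochlear mesenchyme at 108 CPM were also highest in replicate 4, and they hold Met, Slc12a2 and Crym. In SOC replicate 3, Epyc was high at 0.839 CPM and Hist1h1b was low at 17.5 CPM against 30.1 to 30.7 CPM. In SOC replicate 1 the mitochondrially encoded genes summed to 7660.0 CPM against 12500.0 to 13300.0 CPM.

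The organ difference at P0 was apart from those at E16 and P16, by the contrast fitted over all libraries, for the 9 genes named for it. The contrasts on the log2 scale were 7.86 for Tecta, 7.5 for Matn1, 7.04 for Cytl1, 5.52 for Ccer2 and 5.13 for Col9a1 towards the cochlea. Towards the SOC they were -4.08 for Kcnj16, -3.98 for Neurod1, -3.80 for Gda and -3.65 for Mpped1.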

How the results depend on the processing

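The counts of genes higher in the cochlea (3963) and in the SOC (2806) stayed within 1.5 times of these values under every alternative run, from 2810 and 1893 in a test against the fold threshold (glmTreat) to 4015 and 3033. With glmTreat the contrasts at birth fell to 205 genes towards the cochlea and 113 towards the SOC, since that test asks for a difference beyond the threshold itself. With 1 P0 library left out, the counts were 3630 to 3890 higher in the cochlea, 2796 to 3033 higher in the SOC, 4060 to 4563 near equal, and 776 to 954 and 692 to 846 for the contrasts at birth. DESeq2 called 6720 genes, of which 6665 were shared. Replicate numbers were given by different laboratories, and the deviations of same-numbered libraries correlated at -0.288, 0.446 and 0.354, so that the numbers were not taken as pairs. With the replicate block, the calls were 4015 for the cochlea and 2704 for the SOC, with 1063 and 1052 for the contrasts at birth. Among genes that were not called, the sign turned for Jag2 with GC and length offsets (-0.14), for Rdx with these offsets (0.54) and with the replicate block (0.08), and for Rdx, Met, Rps2 and Top2a when a library was left out, with ranges of -0.18 to 0.04, -0.18 to 0.94, -0.17 to 0.02 and -0.11 to 0.38. Near-threshold calls of single genes are given beside them. The median difference of the members was 0.142 on the log2 scale, 0.098 with upper-quartile factors, 0.012 over genes in every joined table and 0.189 with GC and length offsets. Depth limits genes listed at 0, for which up to 20 counts per library are allowed.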

Other observations

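The most abundant transcripts, chosen after their values were seen, were partly shared by the organs. Eef1a1, a translation elongation factor, was at 5569, 5885 and 6199.6 CPM in the cochlea libraries and 6075, 5028, 4583 and 6756 CPM in the SOC libraries, which made it near equal at a log2 difference of 0.07. Rn7sk, a small nuclear RNA that controls transcription elongation, was at 18363 ± 5875 CPM against 14949 ± 2029 CPM and was also near equal. Actb had a log2 difference of -0.49 and was near equal. Among abundant genes that were called, the long noncoding RNA Malat1 was at 18534, 12846 and 13625 CPM in the cochlea libraries and 979, 1938, 2069 and 1457 CPM in the SOC libraries (log2 difference 3.22, SE 0.28, adjusted p 8.32e-09). Gm26917, annotated as a long noncoding RNA, was at 46876, 40415 and 50970.0 CPM in the cochlea libraries and 6677, 4044, 4426 and 3219 CPM in the SOC libraries (log2 difference 3.33, SE 0.25, adjusted p 1.6e-09), and it took more of the cochlear counts than any protein-coding gene. Tuba1a, a tubulin of growing neurons, was at 435, 573 and 570.1 CPM in the cochlea libraries and 7067, 5944, 5313 and 6609 CPM in the SOC libraries (log2 difference -3.57, SE 0.16, adjusted p 1.16e-12), and Map1b, a protein of growing axons, was at 515 ± 130.1 CPM against 3098 ± 607 CPM (log2 difference -2.59, SE 0.26, adjusted p 4.58e-08). Noncoding RNAs without a poly(A) tail depend on the total RNA kit, which went together with organ, and the part of the kit was not tested.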
